A study of Mus musculus with 18 samples.

Results

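Ribosome biogenesis and nucleolar genes were followed through the conversion of 3T3-L1 cells into fat cells. The set was chosen by gene name: a list of 43 genes that encode RNA polymerase I subunits, nucleolar proteins, small nucleolar ribonucleoprotein (snoRNP) proteins and factors that build the small and large ribosomal subunits. A row for 42 of the 43 was found among the 25209 gene names listed in each library, and Noc2l was not analysed here. All 42 passed the filter on low values, so each one was tested.

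A ribosome is assembled in the nucleolus, where RNA polymerase I copies the ribosomal DNA into a long precursor RNA. The precursor is modified at many bases by snoRNPs, folded and cut, and joined by ribosomal proteins into precursors of the small and the large subunit, which mature further on their way to the cytoplasm. Cells that grow and divide make many ribosomes, and the genes of the pathway are well known as targets of the transcription factor MYC.

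3T3-L1 is an established mouse fibroblast line that becomes fat cells when induced. Polyadenylated RNA was sequenced in 18 libraries, 3 in each of 6 groups named Control, MCE1, MCE2, Day4, Day6 and Day8 here. All groups shared the cell line and medium with 10% serum. Cells 2 days past confluence were given 10 µg/mL insulin, 0.25 µM dexamethasone (a glucocorticoid) and 0.5 mM IBMX (a phosphodiesterase inhibitor) for 48 h. They then received 5 µg/mL insulin in medium that was changed every 2 days. MCE stands for mitotic clonal expansion, the divisions of induced cells, as the study's title has it. The labels give no hour for MCE1 and MCE2 and do not say from which moment days 4, 6 and 8 are counted. They say of Control only that name, and the study's design speaks of cells before and during adipogenesis. Separate cultures are not mentioned, so every p-value rests on the spread between the libraries of these groups, which may be technical.

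Each value is a gene's TPM (its length-scaled transcript abundance), a share of its library, with no read depth kept, so depth is unknown. Fold changes were computed from log2(TPM + 1), where a weakly expressed gene appears to change less than it did, and are given ± SE of a limma fit over all 18 libraries. A gene was called at a Benjamini-Hochberg adjusted p under 0.05 over 12695 tested genes. Libraries of the same group correlated with a Pearson's r of 0.976 to 0.991 across genes, which are not independent replicates. The summed level of 9 fat cell markers was 158 to 173 TPM in Control, 17640 to 18560 TPM at Day4 and 25760 to 28350 TPM at Day8. Adipoq, which encodes the fat cell hormone adiponectin, was listed at 0 in all 3 Control libraries and at 3518 to 3637 TPM at Day8. The 10 preadipocyte and fibroblast markers summed to 9968 to 10640 TPM in Control and 6747 to 6982 TPM at MCE1. At MCE2 they summed to 6303 to 6595 TPM and at Day8 to 12670 to 17470 TPM, so their summed level was not lost. Single markers moved apart: of 9 tested, 4 were called higher and 4 lower at Day8 than in Control (31.7% and 39.7% of tested genes). Markers of other cell types summed to little: 8 macrophage markers to 16.9 to 19.9 TPM in Control and at most 11.5 TPM in any later library, 6 endothelial markers to at most 1.72 TPM, and 6 epithelial markers to at most 1.04 TPM in Control and 19.4 to 24.5 TPM at Day8. The part of any marker list in the results was not tested. In such bulk samples, fewer cells that express a gene and less of its RNA per cell cannot be told apart.

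Promoters of the members were read from RefSeq as windows of 300 bases around each gene's start, and 36 of the 42 had an entry (build GRCm38.p6). The letters CACGTG, the E-box that MYC is known to bind with its partner MAX, were found in 6 of these 36 genes (16.7%), against 11.5% of 9801 tested genes and 8.09% of all 27025 genes. A gene with several listed starts was counted once, if any of its windows matched. CACGTG reads the same on both strands and is shown in capitals in the 4 members where it lies within 90 bases before and 30 after the start. Their windows are chr6:125131793-125131912 for Nop2 and chr17:71616125-71616244 for Wdr43, both on the plus strand, chr11:93885737-93885856 for Utp18 on the minus strand, and chr11:3963885-3964004 for Pes1 on the plus strand.
Nop2: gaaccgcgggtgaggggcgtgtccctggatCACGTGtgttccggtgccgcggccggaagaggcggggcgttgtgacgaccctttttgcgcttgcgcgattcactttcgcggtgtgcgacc
Utp18: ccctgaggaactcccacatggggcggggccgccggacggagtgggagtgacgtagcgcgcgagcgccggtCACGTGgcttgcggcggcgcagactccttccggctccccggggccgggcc
Pes1: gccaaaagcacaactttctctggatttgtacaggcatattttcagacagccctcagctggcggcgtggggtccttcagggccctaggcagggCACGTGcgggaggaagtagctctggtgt
Wdr43: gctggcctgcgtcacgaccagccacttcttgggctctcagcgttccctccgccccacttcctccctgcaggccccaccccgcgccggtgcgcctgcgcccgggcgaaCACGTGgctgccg
The other two E-box windows belong to Mybbp1a and Utp20. The related letters CACGCG, or CGCGTG on the other strand, were in 13 of 36 members (36.1%) against 19.9% of tested genes. GGGCGG or CCGCCC, the letters of a GC box, were in 75.0% against 68.4%, and CCAAT or ATTGG in 33.3% against 43.4%. The E-box members did not share a call at MCE1: Nop2 was called higher than Control, Utp20 was called lower, and Utp18, Pes1, Wdr43 and Mybbp1a were not called. At Day8 all 6 were called lower than Control, as were all 42 members. A match describes the letters of a window and not a bound site.

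As a sum, the members were highest at MCE1 and lowest at Day8. By group means, 22 of 42 were highest at MCE1, 12 in Control and 8 at MCE2, while 35 were lowest at Day8 and 7 at Day6. Their summed level was 5931 ± 233 TPM (SD, n = 3) in Control, 6822 ± 117 at MCE1 and 5425 ± 70.3 at MCE2. It was 3295 ± 37.5 TPM at Day4, 2726 ± 82.7 at Day6 and 2342 ± 15.8 at Day8. The 3 libraries of any of these groups did not overlap in this sum with those of a neighbouring group. The fall below Control at MCE2 depended on Npm1 and on the scaling, both checked after seeing the data. Without Npm1 the other 41 members summed to 4459 ± 206 TPM in Control and 4459 ± 57.1 TPM at MCE2. After median-ratio scaling the 42 members summed to 5402 ± 268 in Control and 5680 ± 221 at MCE2, with overlapping libraries. MCE1 had the highest sum in each of these alternatives. A difference among the 6 groups was called in 42 of 42 members by limma's F test, where 87.6% of all tested genes were called.

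**Figure D1:**
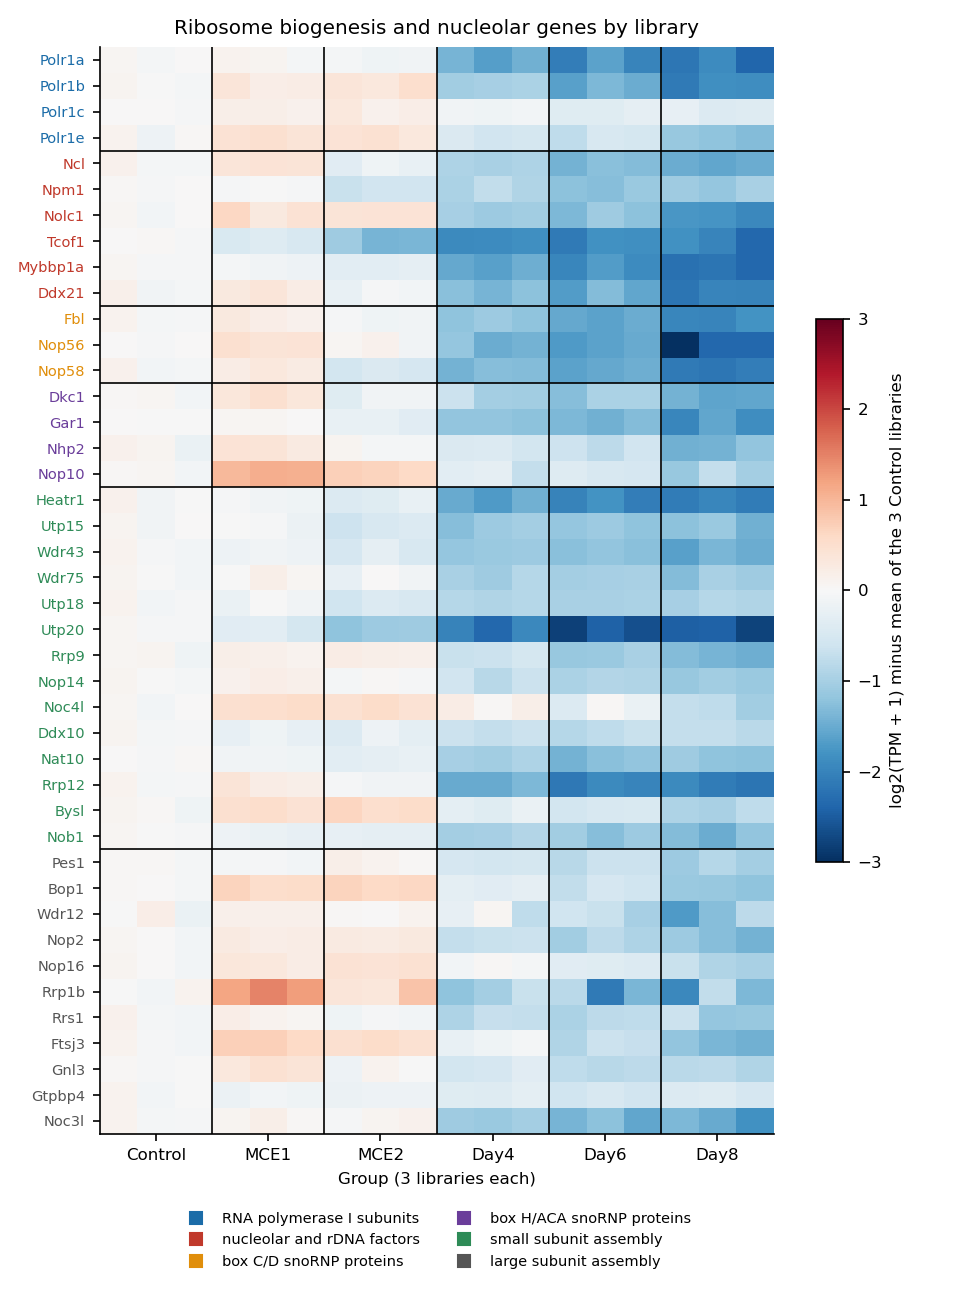
Log2(TPM + 1) of each of the 42 members (rows, coloured by role) in each of the 18 libraries (columns, 3 per group), minus the mean of the 3 Control libraries, on a colour scale from -3 to 3. Red cells gather at MCE1 and MCE2 in part of the rows, and from Day4 on nearly every row is blue, with Nop56 at Day8 and Utp20 at Day6 and Day8 among the darkest.

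MCE1 was compared with Control to see what had changed at the earlier expansion stage. Of 42 members, 20 were called higher and 4 lower, where 22.0% of all tested genes were called higher and 29.4% lower. The members' median log2 fold change was 0.16 and that of all tested genes -0.06. Libraries rescaled by their median ratio gave 23 higher and 1 lower, and this scaling moved the median of all genes by 0.09. Members called higher came from every role: 3 of 4 polymerase subunits, 3 of 6 nucleolar factors, 2 of 3 box C/D proteins, 3 of 4 box H/ACA proteins, 3 of 14 small subunit factors and 6 of 11 large subunit factors. Another 3 of the 14 small subunit factors were called lower, as was 1 of the 6 nucleolar factors. The small subunit factors had a median log2 fold change of -0.08. In 23 of 42 members all 3 MCE1 libraries lay above all 3 Control libraries, which held for 28.4% of tested genes.

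The rises were mostly under 1 log2 unit, and 2 members passed it, where 4.58% of tested genes were called higher by that much. The member with the highest change was Rrp1b (chr17:32173107-32199807, mm9), a nucleolar protein of large subunit precursors. Its Control libraries held 18.8, 17.98 and 20.4 TPM and its MCE1 libraries 44.2, 55.6 and 47.1 TPM. The groups were far apart, with a log2 fold change of 1.31 ± 0.30 (adjusted p = 0.00185). Exons of Rrp1b overlap those of Hsf2bp on the opposite strand, and the library kit is not stated to keep strand, so reads of the pair cannot be told apart. Nop10 (chr2:112102083-112103055), the small core protein of the H/ACA particles that turn uridine into pseudouridine, stood at 215, 219 and 199.6 TPM in Control and 417, 448 and 441 TPM at MCE1. The groups did not overlap (log2 fold change 1.04 ± 0.10, adjusted p = 4.72e-07). Ftsj3, an RNA methyltransferase of large subunit assembly, rose by 0.67 ± 0.08 (adjusted p = 2.13e-06). Bop1, the partner of Pes1 and Wdr12 in a complex needed for large subunit processing, rose by 0.59 ± 0.06 (adjusted p = 4.29e-07).

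The 4 members called lower were Tcof1, Utp20, Ddx10 and Nob1. Tcof1 encodes treacle, which recruits the polymerase I machinery to ribosomal DNA. It fell from 46.9, 47.6 and 44.9 TPM to 33.6, 35.2 and 32.8 TPM (log2 -0.45 ± 0.12, adjusted p = 0.00716), with no overlap of the groups. Utp20 (chr10:88209352-88289559), a very long scaffold protein of early precursors, had -0.39 ± 0.13 (adjusted p = 0.018). Ddx10 and Nob1 had -0.20 ± 0.07 each. The Utp20, Ddx10 and Nob1 calls ended under median-ratio scaling, and the count of members called lower was 1 without Control replicate 1 and 1 without MCE1 replicate 3. Of the 20 higher calls, 14 held under every alternative fit, those of Polr1e, Ncl, Nolc1, Nop58, Dkc1, Nhp2, Nop10, Noc4l, Bysl, Bop1, Nop16, Rrp1b, Ftsj3 and Gnl3.

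**Figure D2:**
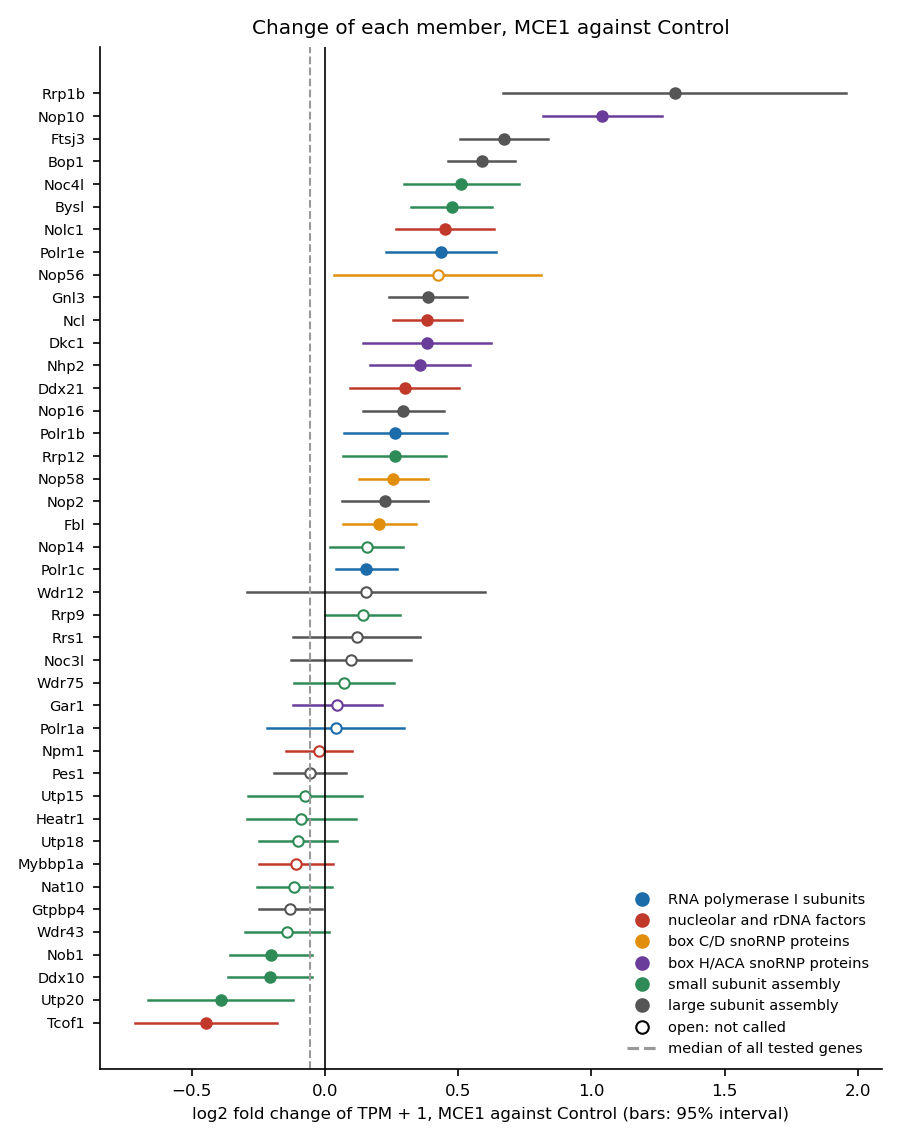
Log2 fold change of TPM + 1 at MCE1 against Control for the 42 members, with 95% intervals (n = 3 per group), coloured by role. Filled points were called, open points were not, the dashed line is the median of all tested genes, and Rrp1b and Nop10 lie to the right of the rest.

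MCE2 was compared with Control and with MCE1 to see how the later expansion stage differed. Against Control, 12 members were called higher and 15 lower, where 23.4% of tested genes were called higher and 39.1% lower. Median-ratio scaling turned this balance to 16 higher and 7 lower and moved the median of all genes by 0.17. Under it 11 members, among them Polr1a, Fbl, Nop14 and Gnl3, turned from negative to positive values of up to 0.19. By at least 1 log2 unit, 0 members were called higher (6.85% of tested genes) and 2 lower (13.6%), Tcof1 and Utp20. Against MCE1, 19 members were called lower (25.2% of tested genes) and 0 higher (17.7%). At an unadjusted p under 0.05, 23 members were lower and 1 was higher. No member was called past 1 log2 unit in this step, neither lower (0 members, 4.74% of tested genes) nor higher (0 members, 2.90%). Members called higher at MCE1 thus differed in their calls at MCE2. Both sets of calls use the same MCE1 libraries, and no difference between members was tested.

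By these calls 10 members stayed up: Polr1b, Polr1c, Polr1e, Nolc1, Noc4l, Bysl, Bop1, Nop2, Nop16 and Ftsj3. They were called above Control at both stages and were not called between the stages. Bop1 stood at 86.3 to 92.6 TPM in Control, 130.8 to 144 TPM at MCE1 and 137 to 142 TPM at MCE2. Its level at MCE2 was 0.63 ± 0.06 log2 units above Control (adjusted p = 1.35e-07). Bysl, a factor of small subunit maturation, was 0.56 ± 0.07 above Control (adjusted p = 3.84e-06).

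By the same calls 9 members rose and then fell back. Ddx21, Fbl, Dkc1, Nhp2, Rrp12, Rrp1b and Gnl3 were no longer called against Control at MCE2, and Ncl and Nop58 were called below it. Nop58, a core protein of the box C/D particles, had 219.6 to 253 TPM in Control, 269 to 287 TPM at MCE1 and 158 to 171 TPM at MCE2. It was lower at MCE2 than at MCE1 (log2 fold change -0.75 ± 0.06, adjusted p = 5.85e-08). Ncl encodes nucleolin, an abundant protein of ribosomal DNA transcription and precursor folding, and changed by -0.62 ± 0.06 in that step. The Ncl call below Control ended under median-ratio scaling, and the Rrp1b fall between the stages (-0.80 ± 0.30, adjusted p = 0.0458) was lost in 11 of 15 alternatives. The Fbl fall between the stages was also lost in some of them. Nop10 was called lower at MCE2 than at MCE1 but was still 0.66 ± 0.10 above Control.

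Tcof1 and Utp20 were called lower at each stage. Tcof1 held 21.6, 17.1 and 17.3 TPM at MCE2, below its MCE1 libraries and far below Control (-1.28 ± 0.12 against Control, adjusted p = 2.02e-07). Utp20 held 21.4, 23.6 and 23.9 TPM, against 50.2 to 52.8 TPM in Control (-1.12 ± 0.13, adjusted p = 1.25e-06). Npm1, which encodes the abundant nucleolar chaperone nucleophosmin, was level at MCE1 with 1441 to 1462 TPM against 1433 to 1508 TPM in Control. At MCE2 its libraries were at 925, 980.4 and 992 TPM, a change of -0.61 ± 0.06 (adjusted p = 1.52e-07). Its transcript shares 24.3% of its 50-base stretches with other annotated transcripts, so its level is uncertain.

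From MCE2 to Day4 nearly every member fell. Of 42, 41 were called lower (22.0% of tested genes), with a median log2 fold change of -0.77 against 0.07 for all tested genes, and all 41 calls held under each alternative fit. None was called higher (29.6% of tested genes), also at an unadjusted p under 0.05, where the count was 0. By at least 1 log2 unit 12 were called lower, against 3.51% of tested genes, and 0 higher, against 7.40%. The exception was Wdr12, a partner of Pes1 and Bop1, whose Day4 libraries spread from 13.4 to 24.4 TPM around MCE2 values of 23.6 to 24.99 TPM. This was the step with the lowest log2 fold change in 34 of 42 members. The members that lost most in it were Rrp1b (-1.48 ± 0.30), Nolc1 (-1.45 ± 0.09) and Polr1a (-1.39 ± 0.12).

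At Day4 against Control, 37 members were called lower (39.3% of tested genes) and 0 higher (29.7%), with 0 higher also at an unadjusted p under 0.05. Those not called were Polr1c, Noc4l, Wdr12, Nop16 and Ftsj3, of which 4 had been called above Control at both expansion stages. Noc4l, a small subunit factor, had 65.1 to 75.1 TPM at Day4 against 60.4 to 67.2 TPM in Control, and was called higher under median-ratio scaling (0.28) and quantile normalization (0.24). At Day6, 41 were called lower (39.4% of tested genes) and at Day8 all 42 (39.7%). Neither day had a member called higher, where 30.2% and 31.7% of tested genes were, and at an unadjusted p under 0.05 the counts were 0 as well. The 42 calls at Day8 held under every alternative fit. Past 1 log2 unit, 15 members were called lower at Day4 (15.0% of tested genes) and 23 at Day6 (15.6%), and 0 were called higher on any of the 3 days (12.3% to 15.4%).

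The members still fell between the late days. From Day4 to Day6, 23 were called lower (11.2% of tested genes) and 0 higher (14.5%), and at an unadjusted p under 0.05 28 were lower and 0 higher. From Day6 to Day8, 23 were called lower (11.6% of tested genes) and 0 higher (10.1%), with 26 lower and 1 higher at an unadjusted p under 0.05. These 2 steps were small, with median log2 fold changes of -0.24 and -0.27, and with the 6 libraries of each step fitted alone the counts were 12 and 14. Past 1 log2 unit, 0 members were called lower from Day4 to Day6 (0.922% of tested genes) and 1, Nop56, from Day6 to Day8 (0.819%). None was called higher by that much in either step (1.98% and 0.788%). Mybbp1a, Fbl, Ncl, Nop58 and Nop14 were called lower in all 4 steps from MCE1 to Day8, although not all of these calls held under every alternative fit.

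At Day8 the means of 31 of 42 members were under 50 percent of Control and those of 10 under 25 percent. Also 31 were called lower by at least 1 log2 unit, where 17.0% of tested genes were. In all 42 members the 3 Day8 libraries lay below the 3 Control libraries, against 40.3% of tested genes. The median log2 fold change was -1.33 for the members and -0.10 for all tested genes. Median-ratio scaling moved the median of all tested genes by 0.13 at Day4 and at Day6 and by 0.11 at Day8, and the Day8 count stayed at 42.

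**Figure D3:**
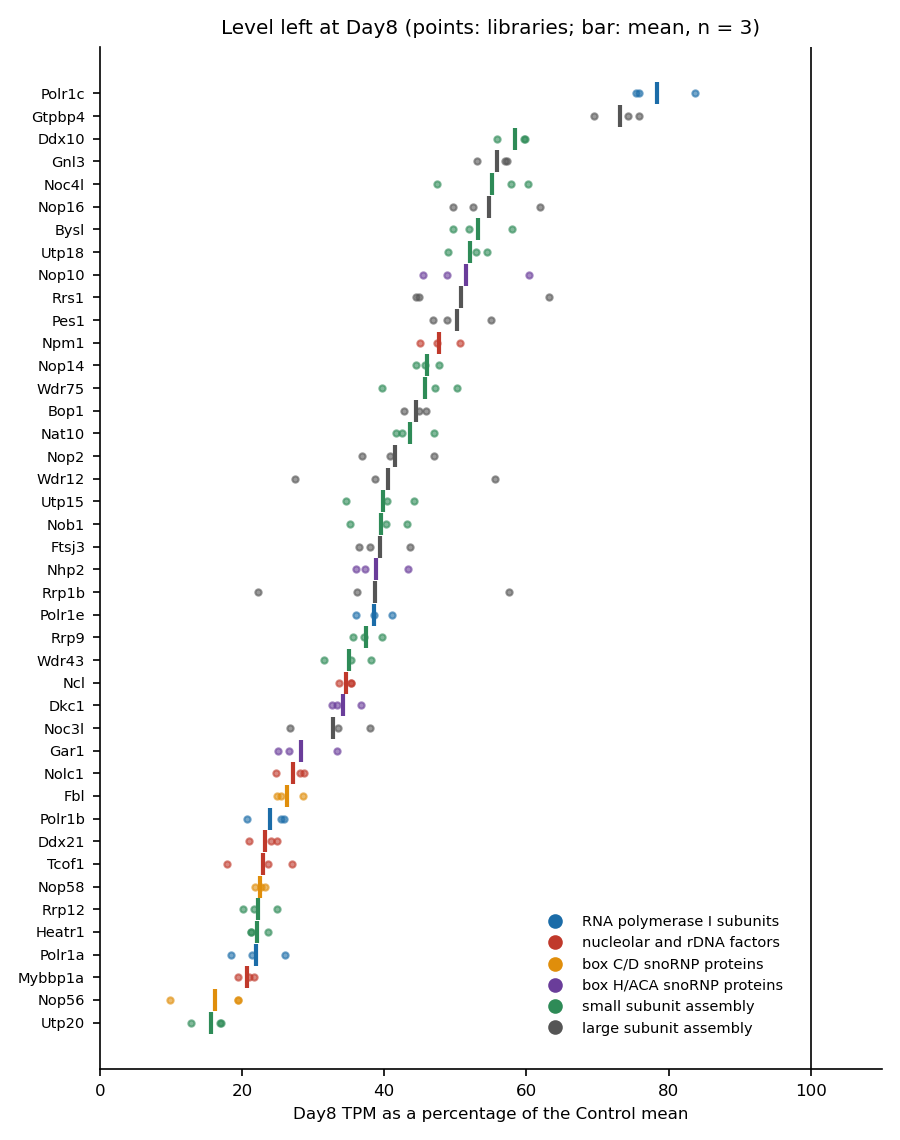
TPM of each member in the 3 Day8 libraries as a percentage of its Control mean (points), with the Day8 mean as a bar (n = 3), ordered by that mean and coloured by role. Utp20 and Nop56 were left with the least, and Polr1c and Gtpbp4 with 78.3% and 73.2%.

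The RNA polymerase I subunits differed among themselves. Polr1a encodes the largest subunit and Polr1b the second-largest, and together they form the catalytic centre. Polr1a had 99.99, 93.2 and 96.7 TPM in Control, 92.7 to 104 TPM at MCE1 and 88.2 to 92.8 TPM at MCE2, with no call at either stage. It stood at 30.1 to 36.1 TPM at Day4 and 20.7, 25.2 and 17.9 TPM at Day8, which was 22.0% of Control (log2 -2.15 ± 0.12, adjusted p = 1.27e-10). Polr1b rose first, from 34.9 to 38.7 TPM in Control to 45.7 to 51.9 TPM at MCE2 (0.39 ± 0.09). It then fell to 7.59, 9.47 and 9.33 TPM at Day8 (-1.95 ± 0.09). Polr1c (chr17:46380869-46384994) encodes a subunit that RNA polymerase III uses as well, and had the smallest change of the 42 at Day8. Its libraries were at 142 to 147 TPM in Control, 158 to 182 TPM at MCE2 and 109 to 121 TPM at Day8 (log2 -0.35 ± 0.05, adjusted p = 2.47e-05), with no overlap between Control and Day8. Polr1e, a subunit of the polymerase's initiation module, had 11.4 to 13.7 TPM in Control, 17.04 to 18.3 TPM at MCE1 and 4.603 to 5.25 TPM at Day8.

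All 6 nucleolar and ribosomal DNA factors were called below Control at Day4, Day6 and Day8 (39.3%, 39.4% and 39.7% of tested genes). At MCE2, 4 of them were called lower (39.1%), and of these the Ncl and Mybbp1a calls were lost in some alternatives. Between the late days the calls of the 6 factors differed. From Day4 to Day6, 3 of 6 were called lower (11.2% of tested genes), and from Day6 to Day8 4 of 6 (11.6%). Tcof1 was called in neither step, and Npm1 had 0.14 ± 0.06 in the latter, not called. Mybbp1a, a nucleolar protein that binds transcription factors and the polymerase I machinery, had 297 to 317 TPM in Control and 59.1 to 65.8 TPM at Day8 (-2.26 ± 0.07, adjusted p = 3.38e-14). Ddx21, an RNA helicase of ribosomal DNA transcription and processing, had 121 to 144 TPM in Control, 152 to 166.6 TPM at MCE1 and 27.3 to 32.3 TPM at Day8 (-2.06 ± 0.10). Nolc1, a chaperone of snoRNPs, went from 56.4 to 62.0 TPM in Control through 73.0 to 91.7 TPM at MCE1 to 14.8 to 17.1 TPM at Day8. Npm1 was called lower with 47.7% of its Control level left, the highest share in this group.

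The box C/D proteins, which hold and use the guide RNAs for ribose methylation, ended among the lowest. Nop56 (chr2:130100148-130105049) had 336, 325 and 335 TPM in Control and 32.7, 64.6 and 64.5 TPM at Day8, so that 16.2% of Control was left. Its log2 fold change was -2.67 ± 0.18 (adjusted p = 2.09e-09), the lowest of all members, but Day8 replicate 1 lay below the other two. Without that library it was -2.35, above Utp20 at -2.60. The MCE1 libraries of Nop56, at 462, 436 and 439 TPM, were all above Control, yet the change of 0.42 ± 0.18 was not called (adjusted p = 0.065). It was called under median-ratio scaling (adjusted p = 0.0206) and with the 6 libraries fitted alone (5.72e-05), the latter without the spread of the other groups. Exons of Nop56 overlap those of Idh3b on the opposite strand, and 18.6% of its stretches are shared with other transcripts. Fbl encodes fibrillarin, the methyltransferase of the particle, and had 243.5 to 272 TPM in Control and 63.3 to 72.8 TPM at Day8 (-1.91 ± 0.06). Of the stretches of Fbl, 19.7% are shared with other transcripts. Nop58 had 50.6 to 53.9 TPM at Day8, 22.6% of Control (-2.12 ± 0.06).

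The box H/ACA proteins were left with 28.3% to 51.5% of Control. Dkc1 encodes dyskerin, the pseudouridine synthase, which is also part of telomerase. It had 73.9 to 82.0 TPM in Control, 99.4 to 110 TPM at MCE1 and 25.8 to 29.0 TPM at Day8 (-1.51 ± 0.11). Gar1, another core protein, was not called at MCE1 and had 21.6 to 28.8 TPM at Day8 against 85.8 to 87.2 TPM in Control. Nhp2, also a core protein, had 196 to 246 TPM in Control, 274 to 299 TPM at MCE1 and 81.9 to 98.5 TPM at Day8. Nop10 ended at 95.9, 127 and 103 TPM, below Control in all 3 libraries, after having been above it in all 3 at MCE1.

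**Figure D4:**
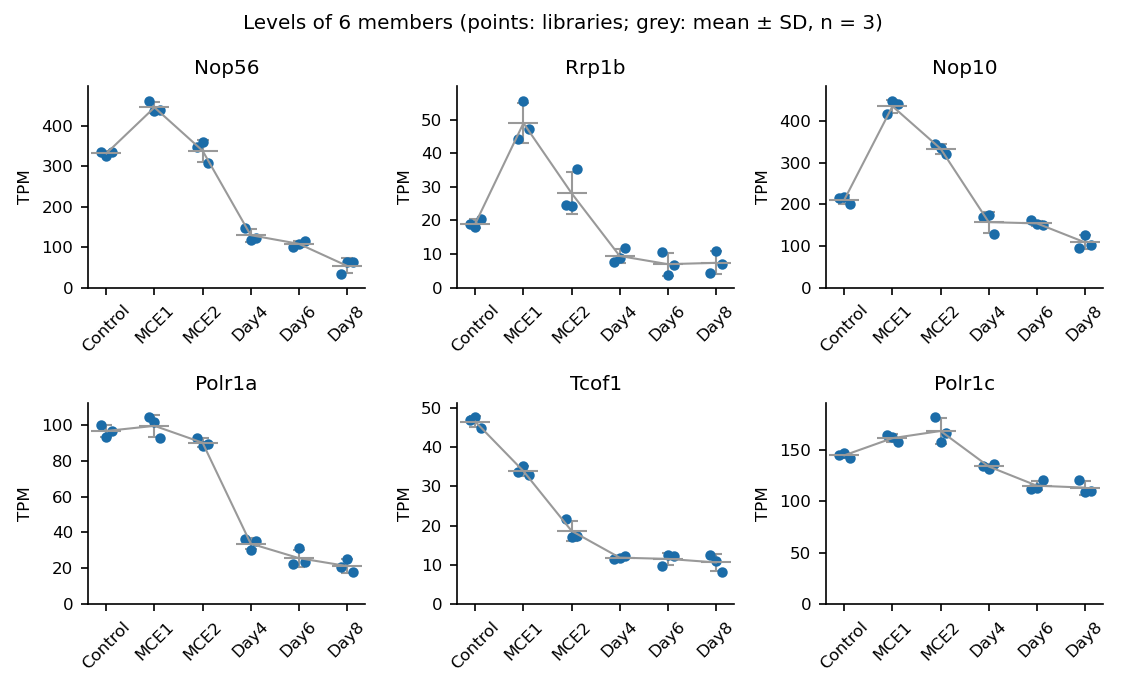
TPM of Nop56, Rrp1b, Nop10, Polr1a, Tcof1 and Polr1c in each library (points) by group, with the group mean and SD in grey (n = 3) and each axis starting at 0. Nop56, Rrp1b and Nop10 peak at MCE1, Polr1a drops between MCE2 and Day4, Tcof1 declines from Control on, and Polr1c changes little.

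Most of the small subunit factors act in the processome, the large complex that forms on the precursor while it is being transcribed. Utp20 had the lowest share of all members at Day8, 15.6%, with libraries at 8.61, 8.71 and 6.59 TPM (-2.55 ± 0.13, adjusted p = 3.28e-11). Heatr1, a scaffold that also serves polymerase I transcription, had 37.0 to 43.5 TPM in Control and 8.48 to 9.48 TPM at Day8 (-2.06 ± 0.10). Rrp12, a factor of subunit export, fell from 43.3 to 48.8 TPM in Control to 9.11 to 11.3 TPM at Day8 (-2.07 ± 0.09). Ddx10, an RNA helicase, kept most within this role, 58.4% (-0.75 ± 0.07). Noc4l was the last member to fall below Control: it was not called at Day4 or Day6 and had 30.4 to 38.6 TPM at Day8 (-0.84 ± 0.10, adjusted p = 1.43e-06). Nob1, the nuclease that makes the final cut of the small subunit RNA, kept 39.5%, and Nat10, which acetylates that RNA, kept 43.7%. Utp15, Wdr43, Wdr75, Utp18, Rrp9, Nop14 and Bysl were left with 35.0% to 53.2%.

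The large subunit factors kept from 32.8% in Noc3l to 73.2% in Gtpbp4. Gtpbp4, a nucleolar GTPase, had 78.2 to 89.3 TPM in Control and 58.1 to 63.3 TPM at Day8 (-0.44 ± 0.06, adjusted p = 2.31e-06). Pes1, Bop1 and Wdr12 form 1 complex, and their calls differed before differentiation. Bop1 rose at both expansion stages, whereas Pes1 had 110 to 115 TPM at MCE1 against 112 to 120.4 TPM in Control and was not called, nor was Wdr12. The 95% interval of Wdr12 at MCE1, -0.29 to 0.60, holds Bop1's 0.59, and no difference between these genes was tested. At Day8 all 3 were called lower and kept 50.2%, 44.5% and 40.6%. Pes1 shares 23.3% of its stretches with other transcripts. Nop2, a methyltransferase of the large subunit RNA, had 172 to 191 TPM in Control, 209 to 218 TPM at MCE1 and 67.0 to 85.6 TPM at Day8. Gnl3 encodes nucleostemin, a GTPase of stem and dividing cells, and kept 55.8%. Nop16 and Rrs1 kept 54.7% and 50.8%, and Ftsj3 and Rrp1b 39.4% and 38.7%.

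Other genes of the pathway, in lists that were also written with earlier results known, were counted in the same fits. At MCE1 against Control, 14 of 38 other small subunit factors were called higher and 6 lower, and 10 of 48 other large subunit factors higher and 7 lower. Of 20 exosome and RNA-cutting nuclease genes, 9 were higher and 3 lower, of 9 snoRNP assembly factors 2 and 3, and of 10 other polymerase I genes 1 and 1. Over all tested genes 22.0% were called higher and 29.4% lower. Pop5, a subunit of the nuclease complexes MRP and P, rose by 1.22 ± 0.09 and Exosc5 of the exosome by 1.07 ± 0.11. Naf1, which assembles box H/ACA particles before Gar1 takes its place, fell (log2 fold change -0.88 ± 0.08), from 60.1 to 72.1 TPM in Control to 34.7 to 35.5 TPM. Gar1 was not called at MCE1 (0.05 ± 0.08), and no difference between these partners was tested.

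At Day8 against Control, 35 of the 38 small subunit factors and 44 of the 48 large subunit factors were called lower, with medians of -0.84 and -0.78. Of the snoRNP assembly factors 9 of 9 were lower, of the other polymerase I genes 8 of 10, and of the exosome and nuclease genes 11 of 20, with 3 higher. Over all tested genes 39.7% were called lower and 31.7% higher. Wdr46 (-1.84 ± 0.09) and Tex10 (-2.03 ± 0.15) were the lowest of the small and large subunit lists. Members of these lists called higher were Imp3, Rcl1, Ddx51, Exosc4, Exosc7 and Pop5, of which Exosc4 and Exosc7 are named because of their values here. Ddx51, an RNA helicase of large subunit assembly, ran against the others: it had 25.5 to 26.6 TPM in Control and 100.3 to 107 TPM at Day4 (1.95 ± 0.07), and was still 0.62 ± 0.07 up at Day8. Of the other polymerase I genes, Taf1d (-1.67 ± 0.13) and Cd3eap (-1.44 ± 0.09) were lowest at Day8. At MCE2, 5 of 10 were called lower than Control and 1, Rrn3, higher (39.1% and 23.4% of tested genes). Rrn3, the initiation factor that makes the enzyme ready for its promoter, was at 75.2 to 81.8 TPM in Control. It was at 94.1 to 106 TPM at MCE2 (0.36 ± 0.07) and at 57.8 to 64.7 TPM at Day8 (-0.33 ± 0.07). Ubtf, which encodes the factor UBF that keeps ribosomal DNA open, was not called in any comparison.

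The products that the pathway handles and the replication genes of dividing cells took other courses. Of 79 cytoplasmic ribosomal protein genes, 18 were called higher and 8 lower at MCE1 (22.0% and 29.4% of all tested genes). At MCE2, 57 were called higher and 0 lower (23.4% and 39.1%), and their summed level was 122800 ± 3634 TPM in Control and 157000 ± 7475 TPM at MCE2. At MCE2 the median log2 fold change of the values as deposited was 0.30 for the ribosomal proteins and -0.08 for the members. Under median-ratio scaling, which moved the median of all tested genes by 0.17, the members had 0.12. The ribosomal proteins' median was not computed under that scaling, so 0.30 and 0.12 cannot be compared. At Day4 the ribosomal proteins summed to 140300 ± 5142 TPM, above Control, while the members had lost much of theirs. By Day8, 50 of the 79 were called lower and 8 higher (39.7% and 31.7% of tested genes), with a median of -0.38. The 34 tested genes of DNA replication, such as the MCM helicase subunits, had 20 called higher at MCE1 and 32 lower at MCE2, with a median of -0.71 against -0.08 for the members. Between MCE1 and MCE2 all 34 were called lower (median -0.998), as were 19 of 42 members (median -0.19) and 25.2% of tested genes. At Day8 the replication genes had a median of -2.09, with Mcm3 at -3.26 ± 0.07. These comparisons share their Control libraries, and no difference between lists was tested.

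**Figure D5:**
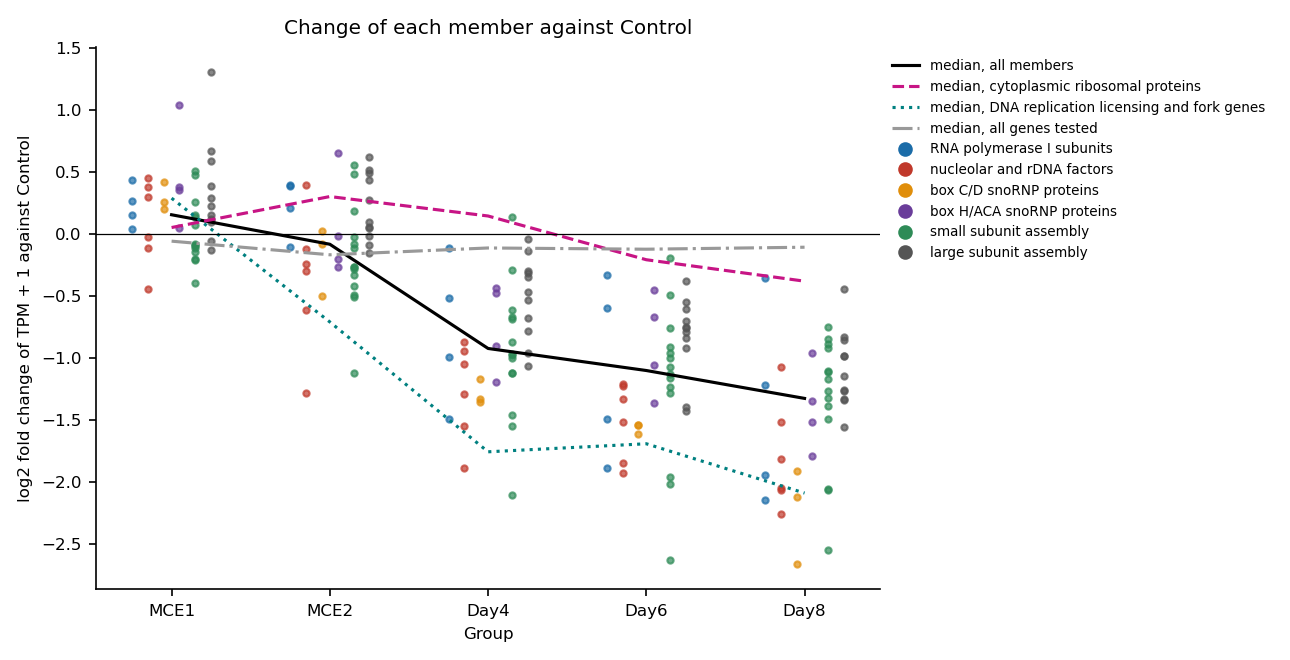
Log2 fold change of TPM + 1 against Control for each member (points, coloured by role) in the 5 later groups, with lines for the medians of the members, of 79 ribosomal protein genes, of 34 replication genes and of all tested genes. The members' median runs from 0.16 at MCE1 to -1.33 at Day8, between the ribosomal proteins and the replication genes from MCE2 on.

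The MYC network has MYC and MAX, which activate E-box genes together, and the MXD proteins, MXI1, MNT and MGA, which compete for MAX. Myc was at 42.9, 42.0 and 37.6 TPM in Control, 75.8, 77.1 and 47.3 TPM at MCE1 and 98.2, 115 and 114 TPM at MCE2. It was above Control in all 3 libraries of both stages, by 0.66 ± 0.27 (adjusted p = 0.0489) and 1.39 ± 0.27 (adjusted p = 0.000277). The MCE1 call was lost in 8 of 15 alternatives, among them 5 of the 6 that left out 1 library, with adjusted p up to 0.159. At Day4 Myc had 21.1, 38.3 and 34.7 TPM and was not called, and at Day8 it had 13.8, 14.9 and 17.3 TPM (-1.36 ± 0.27, adjusted p = 0.000266). Myc was thus highest at MCE2, while the summed level of the members was highest at MCE1.

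The competitors of MYC moved apart. Mxi1 rose from 3.63 to 4.31 TPM in Control to 24.5 to 34.1 TPM at MCE2 and 72.3 to 99.8 TPM at Day8 (4.05 ± 0.13). Mxd1 rose from 4.85 to 5.59 TPM to 30.8 to 33.1 TPM at Day8 (2.40 ± 0.08), and Mxd4 from 105 to 134 TPM to 330.3 to 386 TPM (1.55 ± 0.10). Mxd3, known from dividing cells, was at 27.6 to 30.5 TPM in Control and 64.0 to 66.8 TPM at MCE1, and then at 2.12 to 2.57 TPM at Day8 (-3.21 ± 0.14). Mnt was called lower at MCE1 (-0.89 ± 0.11) and in each later group against Control, and Mga from MCE2 on. Mlx, which pairs with relatives of MYC in nutrient sensing, was called higher from MCE2 on (0.97 ± 0.13 at MCE2). Max was not called in any comparison, with 39.8 to 67.6 TPM over the 18 libraries. Mycn was listed at 0 in all Control, MCE1 and MCE2 libraries and at no more than 1.54 TPM later, and was not tested.

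Most members followed the mean of the others over the 18 libraries. Pearson's r of a member's log2(TPM + 1) with the mean of the other members was 0.814 to 0.995, with a median of 0.962 and 34 of 42 above 0.9. These values are a description, since libraries of 1 group share their state. How many other tested genes reach such values is not given here, so they are not shown to be particular to the members. The lowest belonged to Noc4l (0.814), Wdr12 (0.854) and Tcof1 (0.858), and the highest to Fbl, Nop14 and Ddx21 (0.995 each). Among 12449 tested genes outside the ribosome lists, those most like the mean of the members were Pa2g4 (r = 0.998), Smarce1 (0.993), Cad, Sf3a1 and Eftud2 (0.992 each). Pa2g4 encodes an RNA-binding protein of the nucleolus and of ribosomes, Cad the enzyme that starts pyrimidine synthesis, Sf3a1 and Eftud2 splicing factors and Smarce1 a chromatin remodelling subunit. Mean levels of Pa2g4 were 237 TPM in Control, 302 TPM at MCE1, 228 TPM at MCE2 and 62.1 TPM at Day8.

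Some members carry snoRNA genes in their introns, so that 1 transcript gives both a protein and guide RNAs of the pathway. In the GENCODE M21 annotation, 6 of 42 members (14.3%) had a snoRNA or related gene inside them on the same strand, 19 such genes in all, against 1.89% of 11528 tested protein-coding genes. They were Ncl, Nop56, Nop58, Dkc1, Wdr43 and Gnl3, with 5 in Nop56 and 4 in Nop58. Of these hosts, Ncl, Nop58, Dkc1 and Gnl3 were called higher at MCE1 and lower from MCE1 to MCE2, Wdr43 was called lower in that step but not at MCE1, and Nop56 was called in neither. The snoRNAs themselves were not measured here. Exons of 16 of the 42 members overlap an exon of a gene on the opposite strand. Another 50-base check found 7 members that share over 5% of their stretches with other transcripts: Npm1, Pes1, Fbl, Nop56, Bysl, Rrs1 and Wdr12. In both cases reads could be assigned to the wrong gene of such a pair.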

How the data were processed

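Polyadenylated RNA of 18 libraries was analysed, 3 in each of 6 groups. The deposited values are TPM per gene, made by the authors on mm9 with FastQC, cutadapt, HISAT2 and StringTie, per the submitters' processing notes, while the annotation and the strand setting are not given in the sources used here. TPM is a share of a library, so a large rise of other genes lowers it, and it keeps no depth, so no counting error can be given. TPM summed to 869497 to 880273 per library. Tables were joined by gene name, and 12 genes listed at another locus in Control replicate 1 were left out.

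Log2(TPM + 1) was tested with limma 3.58.1 (R 4.3.3) in 1 fit with a mean per group, a variance trend and robust shrinkage, on the 12695 genes that reached 1 TPM in 3 or more libraries. In all, 9 comparisons and an F test were made, each Benjamini-Hochberg adjusted over all tested genes, with 0.05 as the threshold. The script was tested on simulated data. Alternatives were another pseudocount, other filters, median-ratio scaling, quantile normalization, no trend, each pair of groups alone, a replicate block and leaving out each library. Annotation came from GENCODE M21 and promoter sequences from RefSeq (GRCm38.p6), whose coordinates are not those of mm9.

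The members and all lists were chosen with earlier results of these data known. Any member could be named. For each comparison the 3 highest and 3 lowest members were always considered, along with up to 4 called genes of each other list, every MYC network gene and the 5 genes most like the mean of the members.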

Additional observations from a re-analysis of the deposited data

How the results depend on the processing

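The 42 calls below Control at Day8, the 41 at Day6 and the 41 from MCE2 to Day4 held under every alternative fit, and 36 of 37 at Day4, where Bysl was the exception. Early calls depended more on the scaling. Median-ratio scaling gave 1 member lower at MCE1, 7 lower at MCE2, 1 higher at Day4 and 2 higher from MCE1 to MCE2, and turned 11 members from negative to positive at MCE2 against Control, with values of 0.001 to 0.187, among them Nop14 (0.18), Gnl3 (0.18) and Gtpbp4 (0.047). Quantile normalization gave 1 higher at Day4 (Noc4l), 2 higher from MCE1 to MCE2 and 1 higher from Day6 to Day8 (Npm1). With the 2 groups alone, 1 member was higher from MCE1 to MCE2, 12 were lower from Day4 to Day6 and 14 from Day6 to Day8. The cause of these differences was not tested.

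Asking for a log2 change of at least 1 as well left 2 higher and 0 lower at MCE1, 0 higher and 2 lower at MCE2, 15 lower at Day4, 23 at Day6, 0 lower from MCE1 to MCE2, 12 from MCE2 to Day4, 0 from Day4 to Day6 and 1 from Day6 to Day8. Leaving out 1 library at a time gave 1 to 4 members lower and 14 to 21 higher at MCE1, and 16 to 24 lower from Day4 to Day6. The replicate numbers did not pair the libraries: deviations of same-numbered libraries correlated at -0.07 to 0.09 over 45 pairs. With the replicate number as a block, the counts were 20 higher and 4 lower at MCE1, 12 higher and 15 lower at MCE2, 37, 41 and 42 lower at Day4, Day6 and Day8, 18 lower from MCE1 to MCE2, 41 from MCE2 to Day4, 22 from Day4 to Day6 and 21 from Day6 to Day8, and the F test called 42. Depth is unknown, so what it limits could not be computed.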
